A study of Mus musculus with 21 samples.

Results

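The 10 genes described here act in the loading of peptides onto MHC class I molecules: Tap1, Tap2, Tapbp, Tapbpl, Calr, Canx, Pdia3, Erap1, B2m and Nlrc5. They were taken by name, as the probe sets that the platform annotation gives to 1 of these symbols alone. This gave 22 of the 34945 probe sets with 1 symbol, and each of the 10 genes is 1 of the 13284 genes tested. RNA came from cells sorted out of the spleens of C57BL/6 mice and was hybridised to 21 arrays, 3 in each of 7 groups. The dendritic cell (DC) groups were 33D1 DCs and DEC205 DCs, named for the antibody of the sort, each from mice injected with Flt3L melanoma and killed between days 10 and 12, and from untreated wild-type (WT) mice. The lymphocyte groups were B cells, CD8 T cells and CD4 T cells of WT mice. An array held a pool of 20 mice for DCs of the injected mice, of 40 to 80 mice for WT DCs, and of 5 to 8 mice for lymphocytes, per the labels. Ligand and tumour were given together and cannot be told apart. Nothing in the labels tells whether pools of 1 group came from separate mice, so p-values measure the spread between these samples, which may be technical.

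Class I molecules show fragments of cytosolic proteins to CD8 T cells. The TAP1 and TAP2 proteins form the pump that carries peptides into the endoplasmic reticulum, where tapasin (Tapbp), calreticulin (Calr) and ERp57 (Pdia3) hold the empty class I molecule beside it until a peptide fits. Calnexin (Canx) folds the newly made heavy chain, beta-2-microglobulin (B2m) is its light chain, ERAP1 trims peptides to length, TAPBPR (Tapbpl) edits the bound peptide, and NLRC5 is a transcriptional activator of class I genes. CD8-positive splenic DCs, the type bound by the DEC205 antibody, are known for presenting captured antigen on class I, and the purpose of the arrays, as the submitters give it, included class I associated molecules.

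Tap1, Tap2 and Tapbp lie on mouse chromosome 17 (GRCm38.p6, RefSeq), Tapbpl on chromosome 6, Calr and Nlrc5 on chromosome 8, Canx on chromosome 11, Pdia3 and B2m on chromosome 2 and Erap1 on chromosome 13. Tap1 spans chr17:34187556-34197225, and the interval before it, chr17:34187331-34187555 on the plus strand, is all that separates its start from that of Psmb9, a catalytic subunit of the immunoproteasome that runs the other way. This interval of 225 bases is shown because Tap1 and Psmb9 differed between the DC subsets in the same direction, and its capitals mark the CCAAT box.
Tap1: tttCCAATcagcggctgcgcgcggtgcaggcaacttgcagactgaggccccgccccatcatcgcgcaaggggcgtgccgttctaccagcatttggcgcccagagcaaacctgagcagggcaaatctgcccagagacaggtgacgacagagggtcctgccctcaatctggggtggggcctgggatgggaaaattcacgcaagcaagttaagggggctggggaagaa
The RefSeq promoter table covers 7 of the 10 genes: Tap1, Tapbp, Calr, Canx, Pdia3, Erap1 and B2m. Calr and Canx are shown because their windows hold the same rare motif, the ER stress element, written here as CCAAT followed after 9 bases by CCACG. Each stretch is the 170 bases before the start, chr8:84846932-84847101 on the minus strand and chr11:50325674-50325843 on the minus strand, with the ends of the element in capitals. B2m is shown as the gene whose level did not differ between the subsets by the test, at chr2:122147517-122147686 on the plus strand, with the core of an interferon-stimulated response element (GAAANNGAA) in capitals.
Calr: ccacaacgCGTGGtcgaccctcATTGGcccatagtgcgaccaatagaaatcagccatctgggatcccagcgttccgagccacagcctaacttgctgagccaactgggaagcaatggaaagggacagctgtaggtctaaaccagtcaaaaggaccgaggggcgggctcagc
Canx: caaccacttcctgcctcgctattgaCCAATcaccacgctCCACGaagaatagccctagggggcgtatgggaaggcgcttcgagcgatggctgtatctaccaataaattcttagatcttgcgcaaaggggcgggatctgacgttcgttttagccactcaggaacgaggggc
B2m: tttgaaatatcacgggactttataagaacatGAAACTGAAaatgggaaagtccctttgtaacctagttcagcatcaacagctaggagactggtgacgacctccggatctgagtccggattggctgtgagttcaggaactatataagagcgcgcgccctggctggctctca
Over 250 bases before the start and on both strands, the ER stress element was found in 37 of 32851 promoter windows (0.113%), and among the 7 genes in Calr, 162 to 144 bases before the start, and in Canx, 145 to 127 bases before it. In Calr it lies on the opposite strand and so reads as its reverse complement. The GAAANNGAA core was present in 7.13% of all windows and was found in B2m and in Erap1, whose start in that table lies inside the recorded span of the gene. The gamma-interferon element TTCNNNGAA was present in 7.02% of all windows and in 0 of the 7. CCAAT alone, which is also part of the ER stress element, was present in 33.8% of all windows and was found in all 7 but Erap1. These are matches of letters only.

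The sorted cells carried the markers of their labels. Itgax, which encodes CD11c, had signals of 8904 to 19355 on the 12 DC arrays, against 38.8 to 417.3 on the lymphocyte arrays. Ly75, the DEC205 antigen, lay between 2112 and 3131 in the DEC205 groups and between 117.4 and 218.8 in the 33D1 groups. The summed signal of 6 B cell markers was higher in 33D1 than in DEC205 DCs, at 7799 to 9854 against 3134 to 3576 in WT mice, while B cells had 112514 to 125010. In Flt3L mice the sums were 8333 to 8862 in 33D1 DCs and 1096 to 1662 in DEC205 DCs. Of those 6 markers, 3 were called higher in 33D1 DCs of WT mice and 2 in those of Flt3L mice. Over all genes, 11.3% were called higher in WT mice and 11.7% in Flt3L mice. The part of these markers in the results below was not tested. Summed signals of 4 melanoma markers were 710.3 to 878.7 in 33D1 DCs of Flt3L mice and 746.6 to 1074 in those of WT mice. Array 3 of the 33D1 Flt3L group had more CD8-positive DC marker signal than the others of that group (6988, against 2438 and 3031), and array 3 of the DEC205 WT group more CD8-negative DC marker signal (3730, against 1515 and 1869). In sorted bulk samples, fewer cells of a type and less RNA per cell cannot be told apart.

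In WT mice, 33D1 DCs had lower signals than DEC205 DCs for 8 of the 10 genes and higher signals for 0, by limma with Benjamini-Hochberg adjustment over all genes. Over all genes tested, 11.8% were called lower and 11.3% higher. The 3 arrays of the 33D1 group lay below all 3 of the DEC205 group for 9 of the 10, against 19.0% of all genes. The median log2 difference of the 10 was -0.77, against 0.04 over all genes. Differences are on the log2(signal + 48.6) scale, and signals are linear.

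The peptide pump showed the difference in both of its chains. Tap1 had signals of 4385, 3915 and 3706 in 33D1 WT DCs, against 8186, 7536 and 7333 in DEC205 WT DCs. Its arrays did not overlap, and the difference was -0.93 ± 0.09 (SE), with a limma adjusted p of 7.05e-08. Tap2 had 2209, 1770 and 1736 in 33D1 WT DCs, against 3808, 4001 and 3685 in DEC205 WT DCs, a difference of -1.00 ± 0.12 (limma adjusted p = 8.93e-07). In Flt3L mice the same order was found. Tap1 had 4959, 5300 and 5361 in 33D1 DCs, against 8259, 8521 and 7593 in DEC205 DCs. Tap2 had 1642, 1408 and 1548 in 33D1 DCs of Flt3L mice, against 4359, 4033 and 3914 in their DEC205 DCs. The differences in Flt3L mice were -0.64 ± 0.09 for Tap1 (limma adjusted p = 1.57e-05) and -1.39 ± 0.12 for Tap2 (5.65e-09). A second, dim Tap1 probe set (mean signal 305.6) differed by -0.27 ± 0.25 in WT mice, with a limma adjusted p of 0.557 over all probe sets.

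Pdia3, the oxidoreductase partner of tapasin, had the largest WT difference of the 10. It had 7337, 7106 and 6307 in 33D1 WT DCs, against 15125, 16670 and 17305 in DEC205 WT DCs. The highest 33D1 array lay below the lowest DEC205 array, and the difference was -1.24 ± 0.14 (limma adjusted p = 3.02e-07). In Flt3L mice Pdia3 had 7145, 5727 and 6156 in 33D1 DCs, against 14158, 13462 and 15692 in DEC205 DCs, a difference of -1.18 ± 0.14 (5.87e-07 by limma). Its other probe set, with a mean signal of 253.2, differed by -0.07 ± 0.26 in WT mice and 0.03 ± 0.26 in Flt3L mice and was not called, and the mean of both probe sets gave -0.65 in WT mice and -0.58 in Flt3L mice.

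The chaperones followed with smaller differences. Calr had 9862, 10527 and 8068 in 33D1 WT DCs, against 14486, 15850 and 16447 in DEC205 WT DCs, and all 3 of its probe sets were called lower in 33D1 cells, by -0.72 to -0.81. Canx had 6497, 6056 and 6519 in 33D1 WT DCs, against 9490, 10132 and 9738 in DEC205 WT DCs, and its 3 probe sets were likewise called, by -0.62 to -0.67. Tapbp differed least among the 8, with 8064, 8209 and 8120 in 33D1 WT DCs, against 11240, 11206 and 10798 in DEC205 WT DCs. Its difference was -0.44 ± 0.11 (limma adjusted p = 0.00440), and the call was lost on median centring (-0.53, adjusted p = 0.0669). The second Tapbp probe set, with a mean signal of 3291, was not called in WT mice (-0.36 ± 0.20, limma adjusted p = 0.239) and was called lower in Flt3L mice (-0.61 ± 0.20, limma adjusted p = 0.0297). In Flt3L mice the 3 genes differed by -0.43 ± 0.14 (Calr), -0.53 ± 0.13 (Canx) and -0.37 ± 0.11 (Tapbp), with limma adjusted p of 0.0291, 0.00318 and 0.0180. Of the 3 Canx probe sets, 1 was not called in Flt3L mice (-0.35 ± 0.16, limma adjusted p = 0.124). On median centring the calls of Calr (-0.52, adjusted p = 0.102) and Tapbp (-0.46, adjusted p = 0.119) in Flt3L mice were lost. The Calr call in Flt3L mice was lost (adjusted p of 0.0530 to 0.0981) without any 1 of the 3 DEC205 arrays or without 33D1 array 1 or 3, and the Tapbp call without the second array of either subset (0.0600 and 0.103). These fits used 1 probe set a gene. The other Calr probe sets were both called lower in Flt3L mice, by -0.65 ± 0.12 and -0.58 ± 0.12. Their limma adjusted p over all probe sets was 0.000442 and 0.000724.

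The editing and trimming genes were dimmer. Tapbpl had 1125, 889.2 and 890.7 in 33D1 WT DCs, against 2080, 1586 and 1552 in DEC205 WT DCs, and 926.7, 939.1 and 948.7 in 33D1 DCs of Flt3L mice, against 2346, 1564 and 1614 in their DEC205 DCs. The differences were -0.81 ± 0.17 in WT mice (limma adjusted p = 0.00126) and -0.91 ± 0.17 in Flt3L mice (0.000373). The mean of both Tapbpl probe sets gave -0.48 in WT mice, which did not pass the test (adjusted p = 0.104). Erap1 had 984.9, 776.4 and 973.2 in 33D1 WT DCs, against 1174, 1158 and 1022 in DEC205 WT DCs, which did not overlap but did not pass the test (-0.29 ± 0.14, limma adjusted p = 0.149). In Flt3L mice Erap1 was called, with 930.1, 923.9 and 717.9 in 33D1 DCs, against 1416, 1442 and 1157 in DEC205 DCs (-0.62 ± 0.14, limma adjusted p = 0.00145). A second Erap1 probe set differed by 0.18 ± 0.21 in WT mice and by -0.20 ± 0.21 in Flt3L mice and was called in neither, and the mean of both missed the test in Flt3L mice (-0.41, adjusted p = 0.0560).

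B2m, the light chain, was called in neither kind of mouse. It had 24947, 28211 and 29866 in 33D1 WT DCs, against 22778, 32950 and 29158 in DEC205 WT DCs, and the groups overlapped. The difference was -0.02 ± 0.17, with a 95% interval of -0.38 to 0.34 (limma adjusted p = 0.962). In Flt3L mice it had 20278, 27868 and 32625 in 33D1 DCs, against 20246, 26260 and 27202 in DEC205 DCs, a difference of 0.12 ± 0.17 with a 95% interval of -0.24 to 0.48. B2m was among the brightest probe sets of each array, at 60.5% to 75.8% of the array maximum, with 46 to 153 probe sets above it, and whether its signal was near saturation was not tested.

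Nlrc5, the activator, had 1527, 1842 and 1515 in 33D1 WT DCs, against 3252, 2614 and 3454 in DEC205 WT DCs. The difference in WT mice was -0.91 ± 0.15 (limma adjusted p = 8.19e-05). In Flt3L mice it had 2197, 2333 and 2156 in 33D1 DCs, against 2332, 3460 and 2743 in DEC205 DCs. These groups overlapped by 1 array value, and the difference of -0.33 ± 0.15 did not pass the test (adjusted p = 0.134). It did so at an adjusted p of 0.0495 without the first DEC205 array of Flt3L mice.

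Across both kinds of mice, 8 of 10 were called lower in 33D1 DCs in each, and 7 of these were the same genes: Tap1, Tap2, Tapbp, Tapbpl, Calr, Canx and Pdia3. In Flt3L mice 11.8% of all genes were called lower, the 33D1 arrays lay below the DEC205 arrays for 8 of the 10 genes against 19.4% of all genes, and the median difference of the 10 was -0.57, against 0.04. Whether the subset difference itself changed with Flt3L was tested in the same model. It was called for 0 of 10 genes, against 0.105% of all genes. Of the 10, 3 had an unadjusted p under 0.05, and the share of all genes under that threshold was not counted. The largest change was that of Nlrc5, at 0.58 ± 0.21 (adjusted p = 0.722), so the presence of its call in WT mice and its absence in Flt3L mice is not shown to be a difference.

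**Figure D1:**
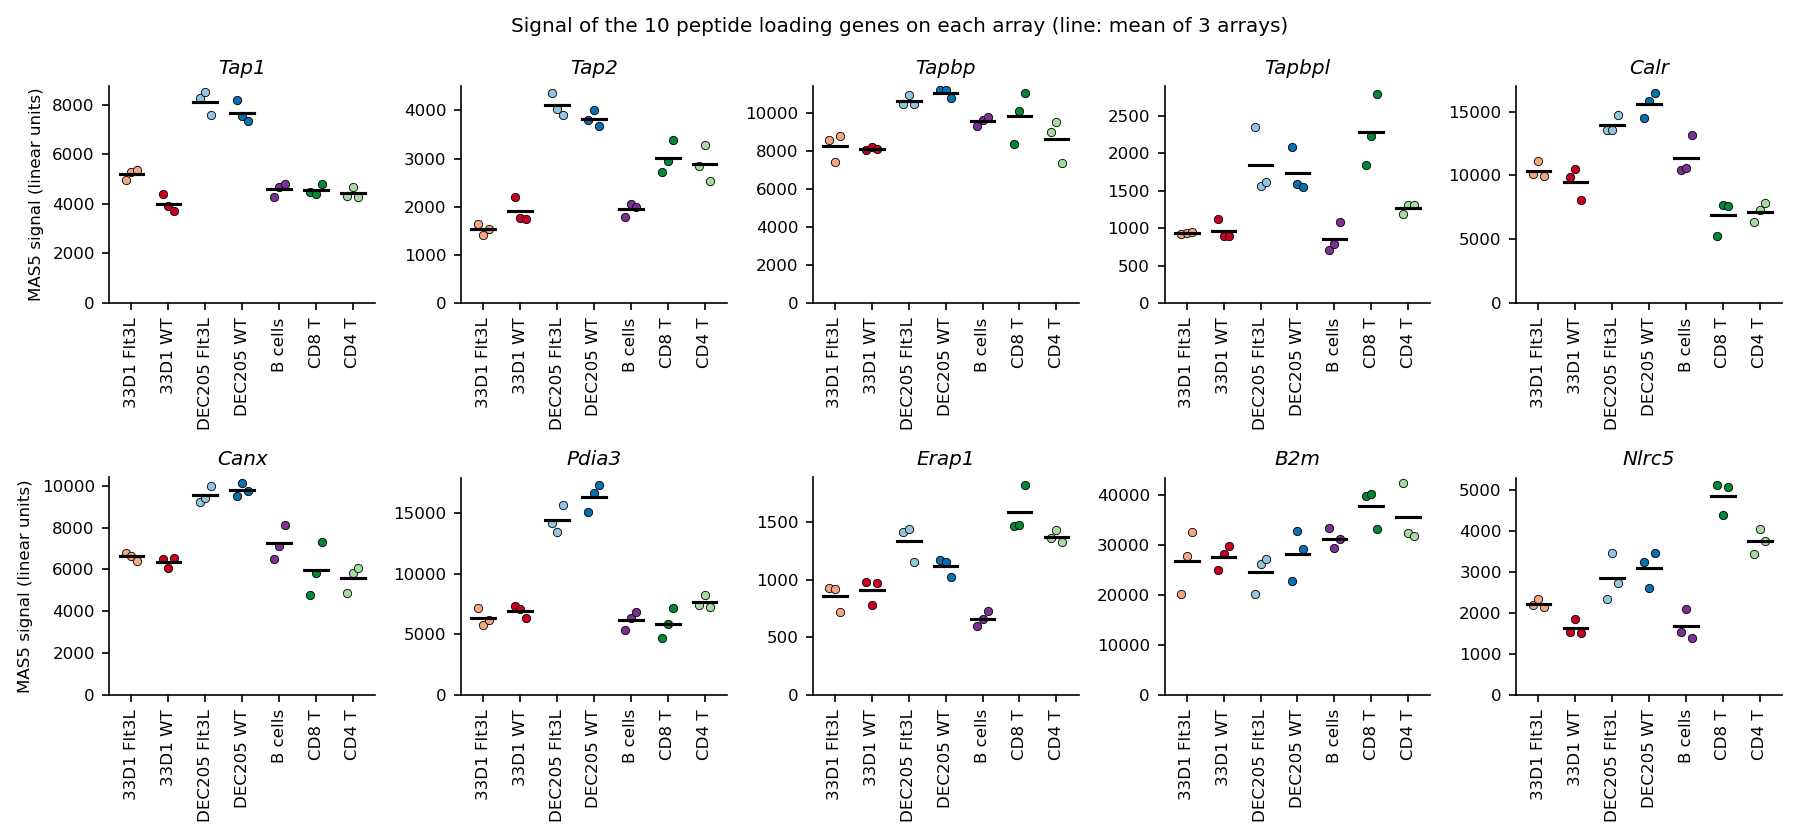
MAS5 signal on a linear axis from 0 for the 10 genes in the 7 groups, with a point for each of the 3 arrays and a line at their mean. Tap1, Tap2, Canx, Calr and Pdia3 stand lower in both 33D1 groups than in both DEC205 groups, while the B2m arrays of the DC groups overlap.

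**Figure D2:**
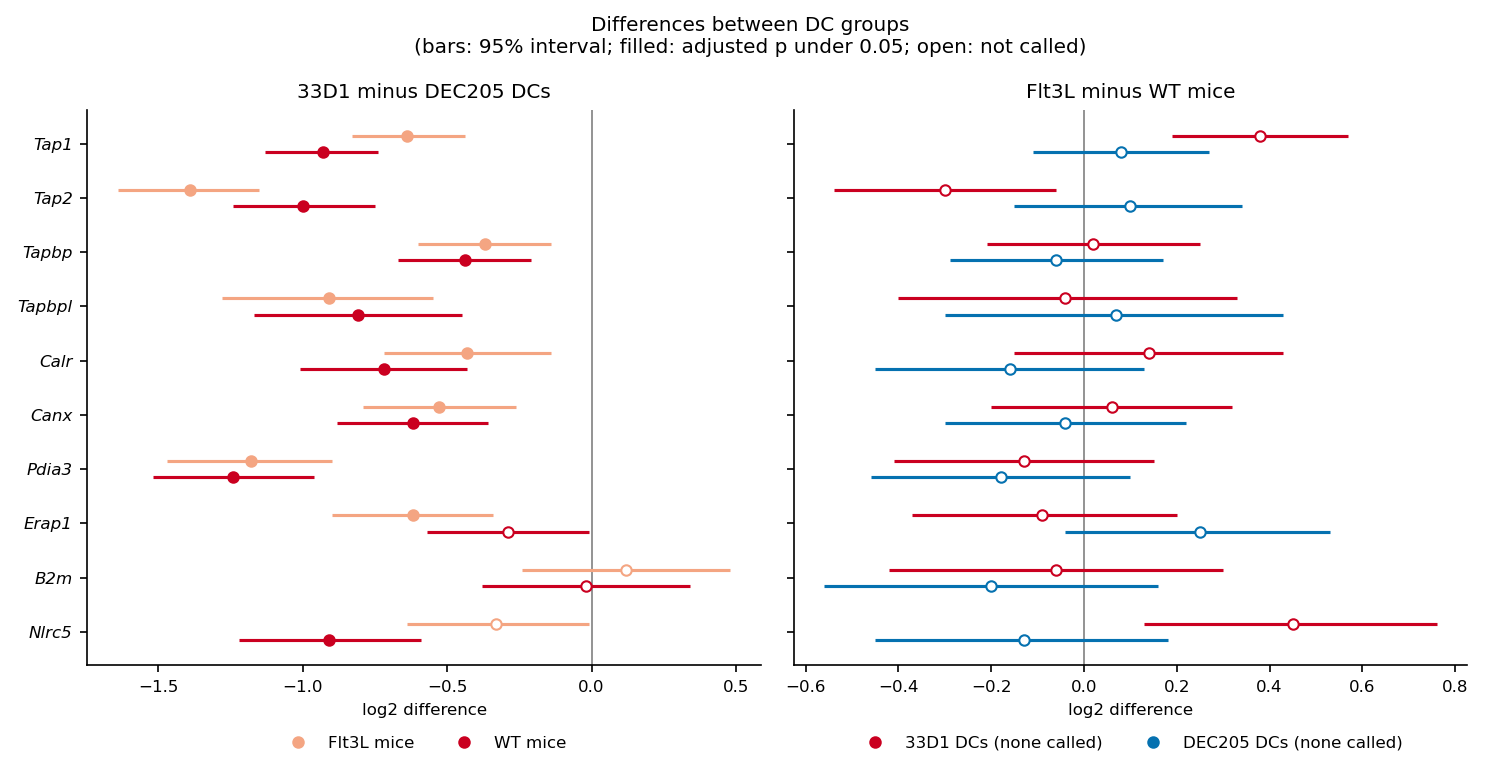
Log2 differences of the 10 genes with 95% intervals, 33D1 minus DEC205 DCs on the left and Flt3L minus WT mice on the right, filled where the limma adjusted p is under 0.05. On the left 8 of 10 are filled in each kind of mouse, all below 0, and on the right none is filled.

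Flt3L mice were next compared with WT mice within each subset. In 33D1 DCs, 0 of 10 genes were called by limma, against 1.01% of all genes, and 3 had an unadjusted p under 0.05. The share of all genes under that unadjusted threshold was not counted in either subset. The 33D1 arrays of Flt3L mice lay above those of WT mice for Tap1 and Nlrc5, and below them for Tap2, where 10.5% of all genes lay above and 7.90% below. Tap1 averaged 5207 ± 216.9 in 33D1 DCs of Flt3L mice and 4002 ± 347.4 in those of WT mice (SD, n = 3 each), a difference of 0.38 ± 0.09 with a limma adjusted p of 0.0524. It passed the test without the first 33D1 WT array (0.45, adjusted p = 0.0476). Nlrc5 averaged 2229 ± 92.84 in 33D1 DCs of Flt3L mice and 1628 ± 185.3 in those of WT mice (0.45 ± 0.15, limma adjusted p = 0.207). Tap2 averaged 1532 ± 117.8 in 33D1 DCs of Flt3L mice and 1905 ± 263.8 in those of WT mice (-0.30 ± 0.12, limma adjusted p = 0.317). In DEC205 DCs, 0 of 10 were called, against 2.11% of all genes, and 0 had an unadjusted p under 0.05. The differences there ran from -0.20 for B2m to 0.25 for Erap1.

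The genes around peptide loading were read from lists of the pathway. Among class I heavy chains and class I-like molecules, 8 of 18 listed genes were measured, and their medians for 33D1 minus DEC205 were 0.04 in WT mice and 0.20 in Flt3L mice. H2-K1 differed by -0.04 ± 0.15 and H2-D1 by -0.10 ± 0.17 in WT mice, and neither was called. The members called in WT mice were Cd1d1, which presents lipids (-1.72), and H2-T24 (0.90), and the same pair was called in Flt3L mice (-2.20 and 0.96). The other 10 listed genes had no kept probe set with that symbol alone and were not analysed here.

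The immunoproteasome cuts proteins into peptides. Genes of it and its activator were lower in 33D1 DCs for 4 of 6 measured in WT mice and for 4 of 6 in Flt3L mice. In each, 0 were higher and the median was -0.71. Over all genes, 11.8% were called lower in each kind of mouse, and 11.3% higher in WT and 11.7% higher in Flt3L mice. Psmb9, which shares the Tap1 promoter interval, differed by -1.00 ± 0.14 in WT mice (limma adjusted p = 6.81e-06) and -0.95 ± 0.14 in Flt3L mice (1.29e-05). Psmb8, another catalytic subunit, differed by -0.87 in WT mice and -0.86 in Flt3L mice, and Pomp, the assembly factor, by -0.81 and -0.90. Psmb10, the remaining catalytic subunit of this form, differed by 0.06 ± 0.13 in WT mice and was not called. Of 13 measured genes of the calnexin cycle, 6 were lower and 1 higher in 33D1 DCs of WT mice. In Flt3L mice 6 were lower and 2 higher, against the same shares of all genes. In WT mice the differences were -1.02 for Txndc5, -1.04 for Man1b1 and -1.32 for Pdia4, which were lower, and 2.83 for the mannosidase Man1a, which was higher.

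Of 8 other peptide trimming genes, 2 were lower in each kind of mouse, where 11.8% of all genes were lower in each, and 1 of the 2 was Lap3 (-1.55 in WT mice and -1.61 in Flt3L mice). Of 10 measured genes of class I transport and cross-presentation, 3 were lower and 2 higher in both, against 11.8% of all genes lower in each kind of mouse and 11.3% higher in WT and 11.7% higher in Flt3L mice. Sec61a1, a channel of the endoplasmic reticulum, was lower in WT mice (-1.06), and Cybb, the catalytic chain of the phagocyte oxidase, was higher (4.72). Of 11 measured regulators of class I genes, 2 were higher and 1 lower in 33D1 DCs of WT mice. In Flt3L mice 1 was higher and 1 lower, against the same shares of all genes. Rfx5 was higher (0.73 in WT mice and 1.08 in Flt3L mice) and Rfxap lower (-1.21 and -0.96), and Rela was higher in WT mice (0.32). Genes of the interferon response ran the other way from the 10. Of 19 measured, 13 were higher and 2 lower in 33D1 DCs of WT mice, with a median of 1.20, where 11.3% of all genes were higher. In Flt3L mice 14 were higher and 0 lower, with a median of 1.02, where 11.7% of all genes were higher. Rtp4 was higher by 4.56 in WT mice and 6.02 in Flt3L mice. Within subsets, 5 of the 19 were higher in 33D1 DCs of Flt3L mice than of WT mice, and 3 in DEC205 DCs, with 0 lower in each. Over all genes, 1.01% were called in either direction in 33D1 DCs and 2.11% in DEC205 DCs.

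**Figure D3:**
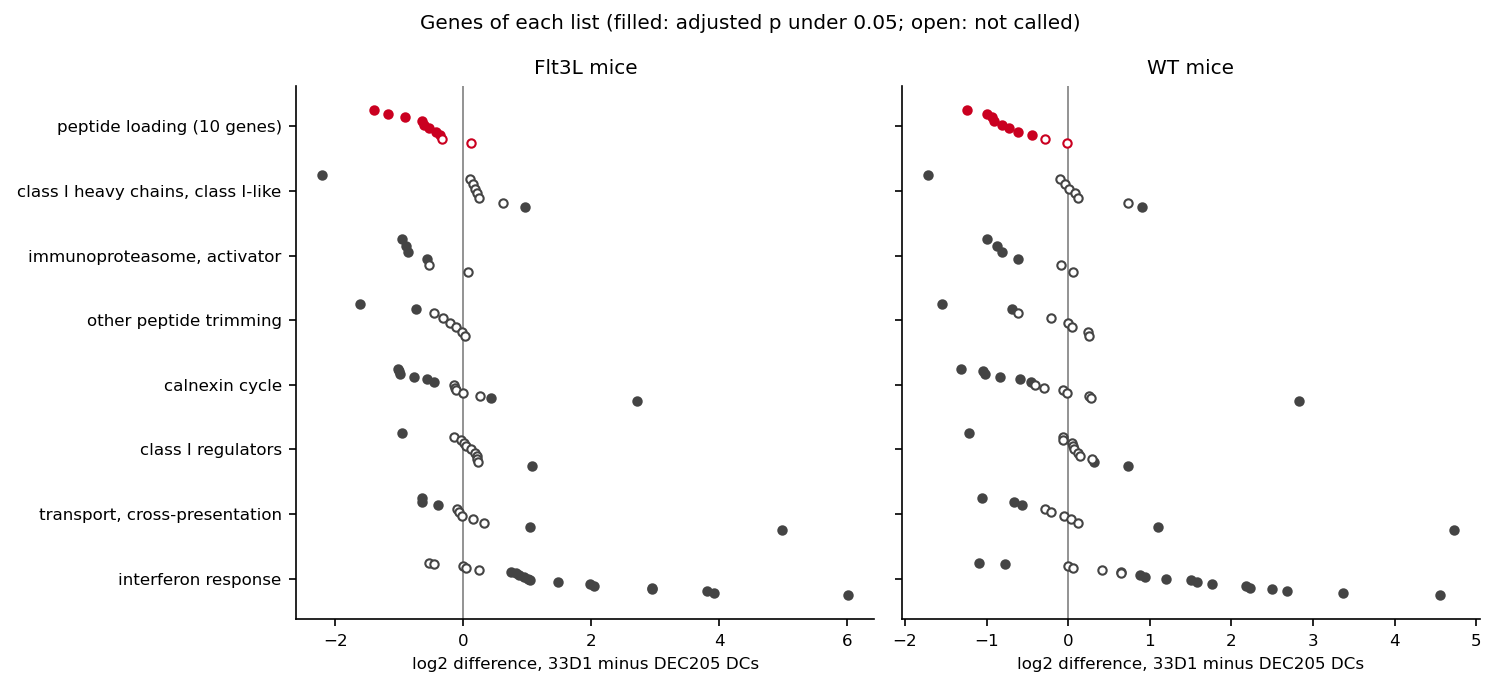
Log2 difference, 33D1 minus DEC205 DCs, of each measured gene in the peptide loading group and the 7 lists, in Flt3L mice (left) and WT mice (right), filled where the limma adjusted p is under 0.05. The peptide loading genes and the immunoproteasome lie mostly below 0 and the interferon response mostly above it.

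Each subset was also set against B cells. In 33D1 WT DCs, 1 gene was called higher than in B cells and 0 lower, where 15.8% of all genes were called higher and 18.3% lower, and the medians were -0.11 for the 10 and -0.06 for all genes. That gene was Erap1, at 984.9, 776.4 and 973.2 in 33D1 WT DCs, against 593.6, 654.3 and 724.7 in B cells (0.44 ± 0.14, limma adjusted p = 0.0142). It missed the test without 33D1 array 1 or 3 or B cell array 1 (0.0580 to 0.0699). In DEC205 WT DCs, 8 genes were higher than in B cells and 0 lower, where 18.3% of all genes were called higher, with medians of 0.73 for the 10 and -0.08 for all genes. They ran from Canx (0.44 ± 0.13) and Calr (0.46 ± 0.14) to Pdia3 (1.40 ± 0.14, limma adjusted p = 1.74e-08). Tap1 was higher by 0.74 ± 0.09 and Tap2 by 0.96 ± 0.12. The second probe sets of Tap1 (0.02 ± 0.25), Pdia3 (0.31 ± 0.26), Tapbpl (0.20 ± 0.33) and Erap1 (0.53 ± 0.21) were not called. Of the other Canx probe sets, 1 was called (0.57 ± 0.17) and 1 was not (0.33 ± 0.16). The other Calr probe sets were both called higher (0.70 and 0.73). Tapbp (0.21 ± 0.11) and B2m (-0.16 ± 0.17) were not called. Calr missed the test without the first or second B cell array (0.0578 and 0.0517), and on median centring both Calr (0.53, adjusted p = 0.0657) and Canx (0.51, adjusted p = 0.0770) did.

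Each subset was then set against the mean of CD8 and CD4 T cells. DEC205 WT DCs were higher for 6 of 10 and lower for 3, where 21.7% of all genes were called higher and 27.5% lower, and 33D1 WT DCs were higher for 1 and lower for 5, where 19.5% were called higher and 24.7% lower. The median of all genes was -0.16 in the DEC205 contrast and -0.13 in the 33D1 contrast, and centring every array on its median moved these to 0.05 and -0.02. The share of all calls that were higher moved with it, to 61.1% from 44.1% for DEC205 and to 56.3% from 44.1% for 33D1. Pdia3, Calr and Canx were higher in DEC205 DCs than in T cells by 1.30 ± 0.12, 1.16 ± 0.12 and 0.77 ± 0.11, or by 1.45, 1.31 and 0.92 relative to the median of all genes. Tap1 was higher by 0.76 ± 0.08, Tap2 by 0.38 ± 0.10 and Tapbp by 0.27 ± 0.10. The second probe sets of Tap1 (-0.08 ± 0.22), Pdia3 (0.27 ± 0.23) and Tapbp (0.05 ± 0.17) were not called. The other probe sets of Calr and Canx were all called higher. The Tapbp call was lost without DEC205 WT array 1 or 2, CD4 array 3 or CD8 array 1 (adjusted p of 0.0574 to 0.0730). It was also lost with quantile normalization (0.11, adjusted p = 0.277), with the mean of its probe sets (0.16, adjusted p = 0.304) and with the compared arrays only (0.27, adjusted p = 0.0764).

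Nlrc5 had its highest mean in CD8 T cells. It had 5128, 4403 and 5073 in CD8 T cells and 3448, 4059 and 3751 in CD4 T cells, and all 33D1 WT arrays lay below these 6. The difference of 33D1 WT DCs from the T cell mean was -1.37 ± 0.13 (limma adjusted p = 1.20e-08). DEC205 WT DCs were also lower than T cells (-0.46 ± 0.13, limma adjusted p = 0.00572), which was lost on median centring (-0.26, adjusted p = 0.337) and without the second DEC205 WT array (-0.34, adjusted p = 0.0602). Erap1 was lower in both subsets than in T cells, with differences of -0.68 ± 0.12 in 33D1 and -0.39 ± 0.12 in DEC205 DCs, though its second probe set was called in neither (0.29 in 33D1 and 0.11 in DEC205 DCs). The Erap1 call in DEC205 DCs was lost without DEC205 WT array 3 (-0.33, adjusted p = 0.0582) and on median centring (-0.18, adjusted p = 0.479). Tap2 and Tapbpl were lower in 33D1 WT DCs than in T cells, with differences of -0.62 ± 0.10 for Tap2 and -0.78 ± 0.15 for Tapbpl. The second Tapbpl probe set was not called there (-0.58 ± 0.29). Tap1 and Tapbp were not called there, but were called lower without 33D1 WT array 1 (Tap1, -0.24, adjusted p = 0.0435) and without CD8 array 1 (Tapbp, -0.23, adjusted p = 0.0439). Quantile normalization of all arrays also gave lower calls for Tap1 (-0.26, adjusted p = 0.00541) and Tapbp (-0.24, adjusted p = 0.0160). Calr was higher in 33D1 WT DCs than in T cells, by 0.44 ± 0.12. B2m was called lower in both subsets (-0.40 ± 0.15 in 33D1 and -0.38 ± 0.15 in DEC205 DCs), but quantile normalization turned the differences to 0.17 in 33D1 and 0.03 in DEC205 DCs, so its direction against T cells is not settled. Its call was also lost without array 1 or 2 of the 33D1 WT group, array 1 or 3 of the DEC205 WT group, CD4 array 1 or CD8 array 1 or 2, at adjusted p of 0.0583 to 0.155 for 33D1 and 0.0671 to 0.277 for DEC205 DCs.

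**Figure D4:**
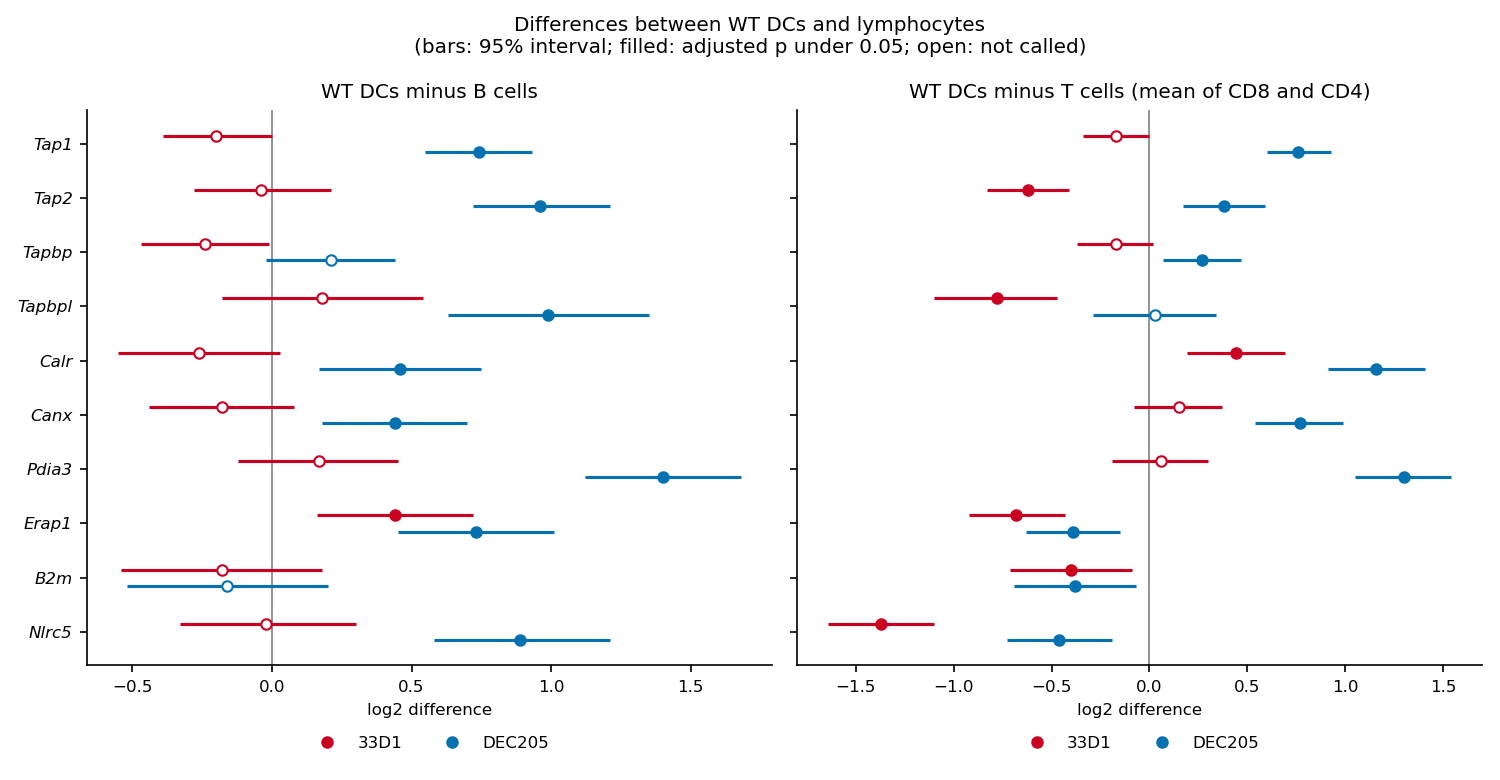
Log2 differences of the 10 genes with 95% intervals for WT DCs minus B cells (left) and minus the mean of CD8 and CD4 T cells (right), 33D1 and DEC205 DCs in red and blue, filled where the limma adjusted p is under 0.05. Nlrc5, Erap1 and B2m lie below 0 against T cells in both subsets, and Pdia3, Calr and Canx lie above 0 in DEC205 DCs. The turn of B2m under quantile normalization is not drawn.

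Between lymphocytes, B cells were higher than T cells for Calr (0.70 ± 0.12) and Canx (0.33 ± 0.11) and lower for Nlrc5, Erap1, Tapbpl and Tap2, where 13.1% of all genes were called higher and 13.9% lower. B cell array 3 was the highest of its group for Calr (13162, against 10410 and 10594) and for Canx (8115, against 6498 and 7109). The summed signal of 3 plasma cell markers was 9170 on that array, against 1030 and 794.8 on the other B cell arrays. It was 247.1 to 1107 on the T cell arrays, and 2 of the 3 were called higher in B cells. On the other B cell arrays Calr still lay above all T cell arrays (7875 at most), while Canx did not (7313 at most). Without B cell array 3 the difference of B cells from T cells was 0.59 for Calr (adjusted p = 0.00179) and 0.24 for Canx (adjusted p = 0.166). The part of plasma cells in these differences was not tested. Nlrc5 had 1539, 2092 and 1373 in B cells, against the T cell values above (-1.35 ± 0.13, limma adjusted p = 2.57e-08). The differences of B cells from T cells were -1.11 ± 0.12 for Erap1, -0.96 ± 0.15 for Tapbpl and -0.59 ± 0.10 for Tap2. The second probe sets of Erap1 (-0.42 ± 0.18) and Tapbpl (-0.62 ± 0.29) were not called (limma adjusted p of 0.0962 and 0.128 over all probe sets). Neither were the other Canx probe sets (0.21 ± 0.15 and 0.25 ± 0.14), while those of Calr were called higher. Median centring moved the higher share of all calls to 60.5% from 48.5% and dropped the calls of Tap2 and Canx, and the Canx call was also lost without B cell array 2 or 3 or array 1 of either T cell group (0.0612 to 0.166). Between T cells, Tapbpl was the 1 gene called, where 1.63% of all genes were called higher: 1840, 2224 and 2794 in CD8 T cells, against 1185, 1305 and 1310 in CD4 T cells (0.81 ± 0.17, limma adjusted p = 0.00870). Without CD8 array 3 it was 0.66 (adjusted p = 0.0589), and Pdia3 was then called at -0.55 (0.0272). With all arrays, the second Tapbpl probe set was not called (0.94 ± 0.33, limma adjusted p = 0.188 over all probe sets).

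The 10 genes followed a few different patterns over the 7 groups. For Pdia3, Tap1, Calr, Canx, Tapbp and Tap2, a DEC205 group was highest, and the levels of the WT and Flt3L groups of DEC205 DCs overlapped. For Nlrc5, Erap1, Tapbpl and B2m, the mean of CD8 T cells was highest. The Nlrc5, Erap1 and Tapbpl levels of CD8 T cells lay above those of CD4 T cells without overlap. Pdia3 ran the other way, with 7142 at most in CD8 T cells and 7245 at least in CD4 T cells. Of these genes Tapbpl alone was called. The share of all genes that did not overlap there was not counted. B2m varied least but for Tapbp, with its highest group mean 1.54 times its lowest, against 1.36 times for Tapbp and 2.99 times for Nlrc5. The closest pairs of genes over the 7 group means, by root mean square difference of centred log2 levels, were Calr with Canx and Canx with Tap1 (0.16 each), and the farthest were Calr and Nlrc5 (0.80). The nearest patterns were sought among the genes tested, with unnamed clones passed over. The gene nearest to Tap1 was Ptdss1 (0.07), to Pdia3 Spata5 (0.09), to Tap2 Mcrip2 (0.12), and to Nlrc5 Prrt1 (0.18). Those distances describe 7 group means, and they share their arrays.

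**Figure D5:**
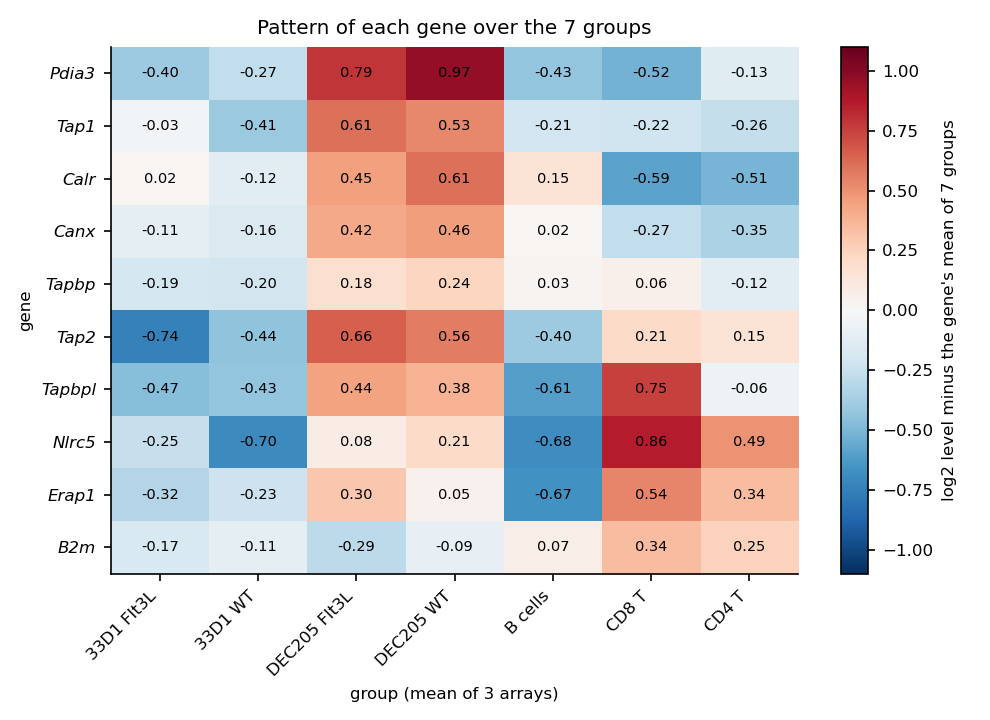
Mean log2 level of each gene in each of the 7 groups, minus the gene's mean over the groups, coloured from blue (lower) to red (higher) with the value in each cell. Pdia3 reads 0.97 in DEC205 WT DCs and -0.27 in 33D1 WT DCs, while Nlrc5 reads 0.86 in CD8 T cells and -0.70 in 33D1 WT DCs.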

How the data were processed

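The deposited values are linear signal intensity. Per the submitters' processing notes the programs were MAS5 and GCOS, with versions not given in the sources used here. Biotinylated cRNA was made from 5 ug of total RNA per the labels' protocols. Each array had a 2% trimmed mean of 500, so the authors had scaled it. Groups and replicate numbers came from sample titles; the descriptions call all samples DCs, so lineage genes were checked. A probe set was kept where at least 3 of 21 arrays exceeded the table's median, 156.3, and each gene took the probe set with the highest mean. Tests used log2(signal + 48.6), whose offset is the table's 25th percentile.

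The 7 group means were fitted together over all 21 arrays in R 4.3.3 with limma 3.58.1 (lmFit, then eBayes allowing the variance to follow intensity, on 14 residual degrees of freedom), two-sided, and a gene was called at a Benjamini-Hochberg adjusted p under 0.05 over 13284 genes. The model was tested on simulated data. The 10 genes, the gene lists and the tests were chosen with earlier results of these data known. All 10 genes were to be named in every contrast, with up to 3 called genes of each list by smallest adjusted p. Not all of these are printed here. Psmb10, Pdia4, H2-K1 and H2-D1 were added after their values were seen. With 3 arrays in a group, their number limits the precision. The arrays had within-group correlations of 0.949 to 0.979 over genes, and 0 pairs were identical.

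Same-numbered arrays deviated together with correlations over 0.1 for all 3 numbers in 1 of 21 pairs of groups, 33D1 and DEC205 DCs of Flt3L mice (0.23, 0.15 and 0.16). With the replicate number as a block among those arrays, 8 of 10 genes were again called. Alternatives tried were other offsets, normalizations, filters and probe set rules, the compared arrays only, no trend, and the replicate block. Each array was also left out in turn, and DEC205 WT array 3 and 33D1 Flt3L array 3 together.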

Additional observations from a re-analysis of the deposited data

How the results depend on the processing

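Over 110 log2 differences (10 genes in 11 contrasts), the replicate block kept direction and side of the threshold for 110, an offset of 1 for 110, median centring for 97 with 13 losing the call, and quantile normalization for 103. With the paired fit (replicate block over all arrays), the counts of called genes were 8 in WT and 8 in Flt3L mice for 33D1 minus DEC205, and the block changed no call. Those counts were 7 in WT and 6 in Flt3L mice with median centring, 7 in WT and 7 in Flt3L mice with the mean of the kept probe sets, and 8 in WT and 7 in Flt3L mice without an intensity trend. DEC205 WT array 3 and 33D1 Flt3L array 3, which had more marker signal of the other subset, were also left out together. The counts were then 8 in WT and 7 in Flt3L mice, where the Calr call was lost (-0.40, adjusted p = 0.102). The 2 reversed values came under quantile normalization: B2m in WT DCs minus T cells, at 0.17 for 33D1 and 0.03 for DEC205. For Flt3L minus WT in 33D1 DCs, the count was 1 (Tap1) with the offset at the table median, with quantile normalization and with the filter on all arrays of a group. For CD8 minus CD4 T cells it was 0 with median centring and 2 with quantile normalization, and for 33D1 WT DCs minus B cells 0 with median centring. The causes were not tested. Leaving out 1 array at a time gave 8 to 8 called genes for 33D1 minus DEC205 in WT mice, 6 to 8 in Flt3L mice, 0 to 0 for the difference between these, 0 to 1 and 0 to 0 for Flt3L minus WT in 33D1 and DEC205 DCs, 0 to 1 and 7 to 8 for 33D1 and DEC205 WT DCs minus B cells, 5 to 6 and 7 to 9 minus T cells, 5 to 6 for B minus T cells and 1 to 1 for CD8 minus CD4. Of 810 such values 772 kept their call and 0 reversed. Over all genes and every alternative that tests genes, leaving out arrays included, the calls for Flt3L minus WT ranged from 53 to 286 in 33D1 DCs (134 as reported) and from 91 to 343 in DEC205 DCs (280), those for the difference between the subset contrasts from 2 to 29 (14), and those for CD8 minus CD4 from 219 to 528 (433). Dim probe sets and bright ones such as B2m limit what signal over background can show.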
